A study of Mus musculus with 2 samples.

Results

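Among the endothelial nuclei of mouse brown adipose tissue, a small set carried transcripts of Vwf, the gene of von Willebrand factor, which is known to mark the endothelium of arteries and veins more than that of capillaries. Members were selected on measured values. A nucleus was taken when at most 10% of its UMIs (unique molecular identifiers, each standing for 1 captured RNA molecule) were mitochondrial, when Ppara and Cidea, 2 genes of brown adipocytes, made up less than 0.3% of its UMIs, and when it held at least 2 UMIs of Vwf, Plvap and Selp with at least 1 of Vwf. It also had to show at least 2 of the 8 endothelial genes Pecam1, Cdh5, Ptprb, Mecom, Tek, Emcn, Ldb2 and Adgrl4, and at most 1 of Col6a3, Dcn, F13a1, Mrc1, Ttn and Abcc9, genes of other cells. The rule found 74 nuclei among 29175 barcodes, 28 in the library labelled KO and 46 in the library labelled Flox. They are called Vwf nuclei here.

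The tissue came from mice of 4 weeks and was profiled as single nuclei, with 8000 nuclei targeted per library and 1 library for each of the genotypes KO and Flox. In the KO mice Nfe2l1 was knocked out, per the design text; it encodes a transcription factor that drives proteasome genes. The sources used here do not give the Cre driver, the exons removed or the number of mice behind a library. The comparison asks what the loss of Nfe2l1 does to the cells of brown fat. With 1 library per genotype there is no replicate check and no test, so sizes follow fixed rules, and the 95% intervals cover counting error only.

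The KO library held 13030 barcodes with 43080725 UMIs and a median of 2755 UMIs per barcode, and the Flox library 16145 barcodes with 46528077 UMIs and a median of 2375. Nfe2l1 went against the label where it was abundant: adipocyte barcodes (Ppara and Cidea at 0.3% or more, no UMI of an endothelial or other-cell gene of the rule) had 315 CPM (a gene's part of the UMIs summed over the class, on the usual CPM scale) in the library labelled KO and 129 CPM in the library labelled Flox. The removed exons are not known here and the cause of this difference was not tested, so KO and Flox name labels throughout. In Vwf nuclei Nfe2l1 had 6 UMIs in KO and 12 in Flox, a log2 ratio of KO over Flox of -0.18, and no difference was detectable at this depth. Of the barcode sequences, 65 occurred in both libraries and 0 of those belonged to Vwf nuclei.

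Von Willebrand factor is stored in endothelial cells in Weibel-Palade bodies together with P-selectin, the product of Selp, and is released to bind platelets at sites of injury. PLVAP forms the diaphragms that close caveolae and fenestrae. Arteries and veins differ in their genes: connexin 40 (Gja5), the kinase Bmx and elastin are known from arterial endothelium, and the adhesion receptors for white blood cells and the receptor Ackr1 from venules, while capillaries of fat carry the fatty acid transport genes Cd36, Gpihbp1 and Fabp4.

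In Vwf nuclei the KO library had 97 Vwf UMIs (1383 CPM, 1122 to 1687) in all 28 nuclei, and the Flox library 166 (1392 CPM) in all 46. At least 2 Vwf UMIs were present in 24 of the KO nuclei and 36 of the Flox nuclei. Plvap was detected in 18 KO and 30 Flox nuclei and Selp in 7 and 17, while 10 KO and 14 Flox nuclei had Vwf without either. These values follow from the selection. Depth per Vwf nucleus ran from 617 to 9171 UMIs with a median of 1759.5 in KO, and from 608 to 6964 with a median of 2029.5 in Flox.

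The selection lies close to the limit of counting. Of the members, 8 KO and 16 Flox nuclei stood at exactly 2 UMIs of Vwf, Plvap and Selp, and just outside stood 13 KO and 33 Flox nuclei with a single UMI, of Vwf. Elastin RNA was at 2706 CPM in KO and 5089 CPM in Flox just inside the limit, and at 777 CPM in KO and 2747 CPM in Flox just outside it. Cd36 ran the other way, with 2255 and 2247 CPM inside and 4533 and 4008 CPM outside. Sorbs2 stood at 1160 CPM in KO and 892 CPM in Flox inside, and still at 939 and 552 CPM outside. Myrip stood at 966 and 760 CPM inside and 648 and 453 CPM outside. Nuclei with at least 2 UMIs of Plvap and Selp but none of Vwf, 3 in KO and 6 in Flox, had Eln at 2116 and 2173 CPM. In these few nuclei Sorbs2 was at 163 and 1368 CPM and Myrip at 0 and 885 CPM.

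Vwf nuclei made up 0.217% (0.144 to 0.313) of the barcodes under the mitochondrial limit in KO, 28 of 12907, and 0.287% (0.210 to 0.382) in Flox, 46 of 16046. The ratio of KO over Flox was 0.757 (0.455 to 1.24, exact binomial). Among endothelial nuclei the share was 2.39% (1.59 to 3.43) in KO and 2.60% (1.91 to 3.45) in Flox, a ratio of 0.920 (0.554 to 1.503). No difference in either share was detectable with these numbers of nuclei. Endothelial nuclei as a whole were 9.08% of barcodes in KO and 11.04% in Flox, a ratio of 0.823 (0.764 to 0.886). Fewer such cells in the tissue and fewer of their nuclei recovered cannot be told apart.

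What else the Vwf nuclei expressed was read against the Vwf-negative endothelial nuclei of the same library, which met the same conditions but held no UMI of Vwf, Plvap or Selp (1117 in KO and 1660 in Flox, with median depths of 1729 and 1436.5 UMIs). Genes outside the rule with at least 50 UMIs over both classes in each library were compared, 7399 in all. In both libraries 324 of them, 4.38%, stood 2-fold or more above Vwf-negative nuclei and 525, 7.1%, stood 2-fold or more below. Among the higher ones were members of the arterial, venous, coagulation and matrix lists, and among the lower ones members of the capillary and fatty acid uptake lists. Because the 50 UMIs were counted over both classes, a lower gene could pass through Vwf-negative nuclei alone. Of the 525 lower genes, 121 had no UMI in the Vwf nuclei of either library. An alternative added after the values were seen asked at least 10 UMIs of the Vwf nuclei at equal levels. It left 62 of 1670 genes (3.71%) higher and 128 (7.66%) lower.

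Eln, which encodes elastin and lies at chr5:134702593-134747323 on the minus strand of mm10, was the most abundant gene that set these nuclei apart. It had 299 UMIs (4264 CPM) in 25 of 28 KO nuclei and 590 UMIs (4948 CPM) in 37 of 46 Flox nuclei, against 171 CPM in KO and 209 CPM in Flox in Vwf-negative nuclei. The log2 ratios of Vwf over Vwf-negative nuclei were 4.64 in KO and 4.57 in Flox. Adipocyte barcodes, a class that should lack the gene, had 0.96 CPM in KO and 1.78 CPM in Flox. They were chosen without a UMI of the endothelial and other-cell genes of the rule. They can therefore understate the free RNA of vessel cells in the droplets, which was not measured. After every nucleus was thinned to 1000 UMIs, an Eln UMI was present in 18 of 22 Vwf nuclei in KO (81.8%; 89.3% unthinned) and 32 of 41 in Flox (78.0%; 80.4% unthinned), against 13.8% and 15.03% of Vwf-negative nuclei and 0.104% and 0.199% of adipocyte barcodes. Thinning left out 6 KO and 5 Flox Vwf nuclei that were shallower. The Vwf nuclei, a small part of the endothelial nuclei, held 38.3% of all endothelial Eln UMIs in KO and 38.6% in Flox.

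Mgp, which encodes matrix Gla protein, an inhibitor of vessel calcification, was at 3166 CPM in KO and 2180 CPM in Flox, against 34.2 and 44.6 CPM in Vwf-negative nuclei. It was spread less evenly than Eln. A single nucleus held 91 of the 222 UMIs in KO and another 80 of the 260 in Flox, and 12 of 28 KO and 23 of 46 Flox nuclei had any. Cytl1, the gene of a small secreted protein, had 68 UMIs in 4 KO nuclei and 60 in 9 Flox nuclei, with 39 and 14 in the top nucleus, and log2 ratios over Vwf-negative nuclei of 9.09 and 7.04. In KO 94.4% and in Flox 80.0% of all endothelial Cytl1 UMIs lay in Vwf nuclei.

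The markers Sorbs2 and Pgm5 set the Vwf nuclei apart from Vwf-negative nuclei, and so did Myrip and Ehd4, genes of membrane traffic. Sorbs2, an adaptor between adhesion sites and actin, stood at 841 CPM in KO and 1040 CPM in Flox, against 34.2 and 39.1 CPM in Vwf-negative nuclei, and was found in 20 of 28 KO and 39 of 46 Flox nuclei. Pgm5, a phosphoglucomutase relative found at muscle adhesion sites, stood at 856 CPM in KO and 361 CPM in Flox, against 18.3 and 12.6 CPM. Of its 60 UMIs in KO, 17 lay in 1 nucleus and 16 in another, and 14 of 28 KO and 23 of 46 Flox nuclei had any. Myrip, which links Rab27a to myosin and sits on Weibel-Palade bodies in human endothelial cells, had 1283 CPM in KO and 1275 CPM in Flox, against 42.2 and 34.2 CPM, and its log2 ratios were 4.93 and 5.22. Adipocyte barcodes also had Myrip, at 42.7 and 33.8 CPM, a level like that of the Vwf-negative nuclei. Ehd4, an ATPase of endocytic membranes, had log2 ratios of 4.85 in KO and 5.16 in Flox.

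The rest of the 15 genes with the largest ratios were Mctp1, Ctnnal1, Nos1ap, Rasa4, Lrg1, Itga9, Nuak1 and Wipf3. Mctp1, a calcium-binding membrane protein, reached log2 ratios of 5.59 in KO and 4.98 in Flox. The remaining ones lay between 3.63 and 5.06 in KO and between 3.76 and 4.59 in Flox. They include Itga9, an integrin subunit, at 342 and 369 CPM, and Lrg1, a secreted glycoprotein of venous endothelium, at 342 and 294 CPM. Against a stricter set of Vwf-negative nuclei, those with at least 4 of the 8 endothelial genes and none of the 6 other-cell genes, all 15 stayed at least 2-fold higher in both libraries; this set was defined after the values were seen. When at least 10 UMIs were asked of the members at equal levels, an alternative also added after the values were seen, the highest genes after Eln were Dnm3, Sulf1, Thsd7a and Fmo2. Sulf1, an extracellular sulfatase, had 1797 CPM in KO and 998 CPM in Flox, against 118 and 139 CPM.

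**Figure D1:**
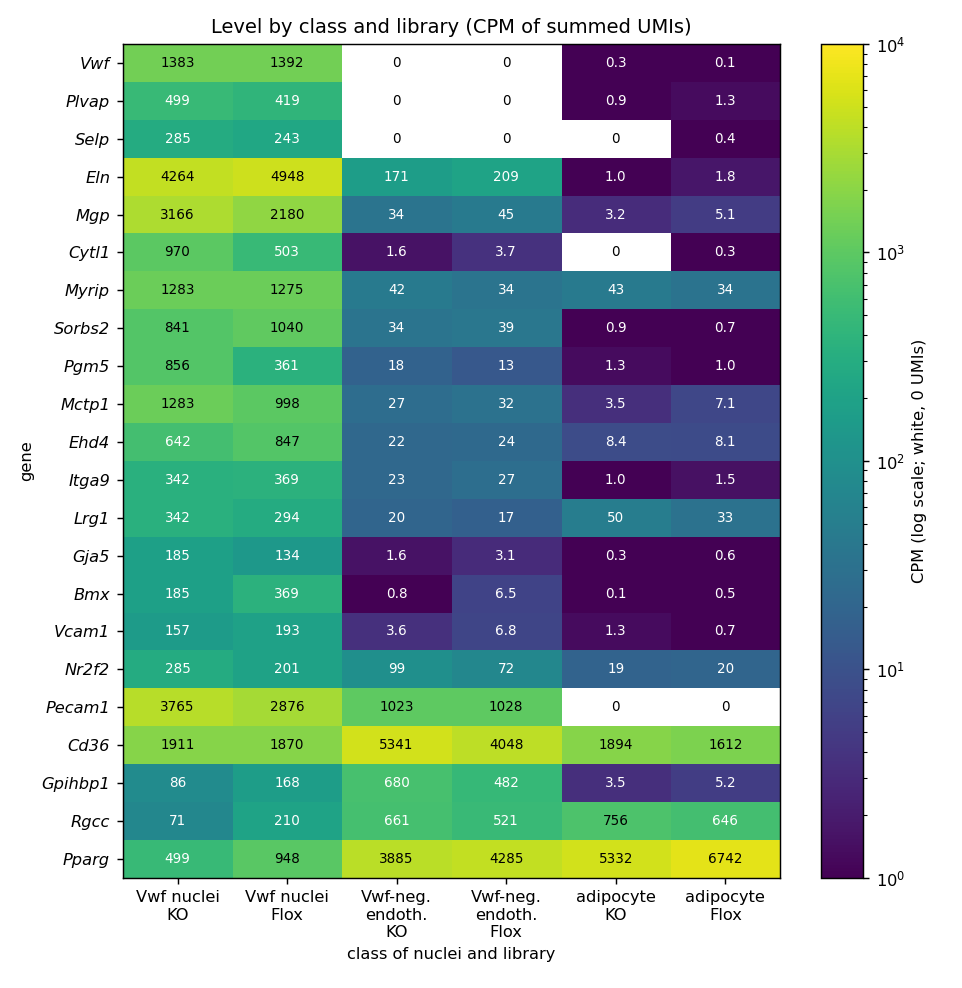
Level of 22 genes (rows) as CPM of summed UMIs, on a log colour scale with the value printed in each cell, in Vwf nuclei, Vwf-negative endothelial nuclei and adipocyte barcodes of the libraries labelled KO and Flox (columns). Vwf, Plvap and Selp define the first classes; Eln reads 4264 and 4948 CPM in Vwf nuclei against 171 and 209 CPM in Vwf-negative nuclei, and Cd36 runs the other way.

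Of the 15 genes named higher, 13 had an entry in the RefSeq promoter table (build GRCm38.p6). The promoters of Cytl1 (chr5:37735269-37735568, plus strand), found in nuclei with arterial markers, Mctp1 (chr13:76579347-76579646, plus strand), higher in summed CPM in nuclei without them, and Pgm5 (chr19:24861793-24862092, minus strand), found in 14 of 28 KO and 23 of 46 Flox nuclei, are shown as examples of the sequence before their starts. They run from 250 bases before the start to 50 after it. Capitals mark the letters AGGAAG on either strand (written CTTCCT on the other), a core to which ETS factors of endothelial cells are known to bind.
Cytl1: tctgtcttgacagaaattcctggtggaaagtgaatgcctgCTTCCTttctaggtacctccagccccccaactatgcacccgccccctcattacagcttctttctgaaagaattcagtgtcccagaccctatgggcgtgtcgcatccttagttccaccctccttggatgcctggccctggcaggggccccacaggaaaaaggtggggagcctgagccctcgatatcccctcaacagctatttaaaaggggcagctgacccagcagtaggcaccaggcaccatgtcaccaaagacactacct
Mctp1: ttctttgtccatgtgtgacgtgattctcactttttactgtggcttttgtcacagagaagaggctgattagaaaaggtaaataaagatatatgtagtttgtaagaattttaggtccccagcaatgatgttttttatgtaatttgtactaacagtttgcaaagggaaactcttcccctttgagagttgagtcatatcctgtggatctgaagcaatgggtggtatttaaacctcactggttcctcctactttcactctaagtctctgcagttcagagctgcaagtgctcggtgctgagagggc
Pgm5: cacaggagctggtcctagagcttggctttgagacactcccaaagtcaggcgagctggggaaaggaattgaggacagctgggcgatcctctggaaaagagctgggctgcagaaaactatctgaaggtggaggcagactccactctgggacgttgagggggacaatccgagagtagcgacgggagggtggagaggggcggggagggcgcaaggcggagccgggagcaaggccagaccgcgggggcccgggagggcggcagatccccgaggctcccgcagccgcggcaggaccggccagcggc
The letters occurred once in the Cytl1 window and in neither of the others, and 35.1% of the 27025 promoters of the table held them. A match describes letters only.

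**Figure D2:**
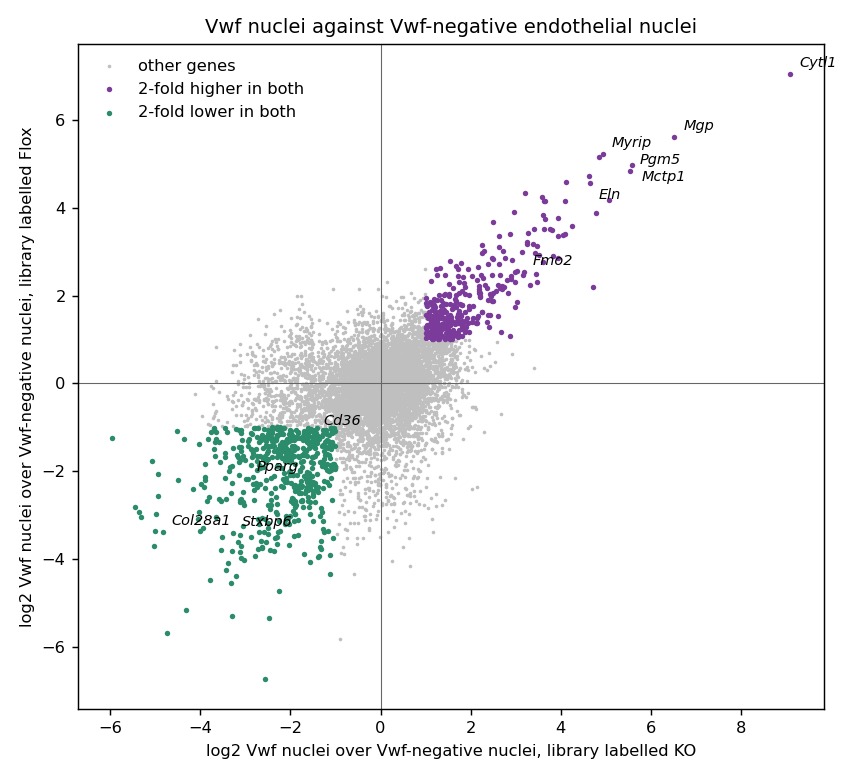
Each point is 1 of 7399 genes, with the log2 ratio of Vwf over Vwf-negative endothelial nuclei in the library labelled KO (horizontal) and Flox (vertical). Purple points are at least 2-fold higher and green points at least 2-fold lower in both libraries; Cytl1, Mgp, Myrip, Pgm5, Mctp1 and Eln stand at the upper right, and Pparg, Stxbp6 and Col28a1 at the lower left.

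Arterial genes stood furthest above Vwf-negative nuclei among the endothelial lists. Of 15 arterial genes compared, 7 were at least 2-fold higher in both libraries and 0 lower, and the summed level of the arterial list was 11294 CPM in KO and 10835 CPM in Flox, against 1252 and 1361 CPM, a fold of 9.02 in KO and 7.96 in Flox. Eln and Mgp carry much of that sum. Gja5 had 13 UMIs in 3 KO nuclei and 16 in 7 Flox nuclei (185 and 134 CPM, against 1.59 and 3.08 CPM), and Bmx 13 in 5 KO and 44 in 11 Flox nuclei (185 and 369 CPM, against 0.80 and 6.46 CPM). Edn1, which encodes the vasoconstrictor endothelin-1, stood at 200 CPM in KO and 310 CPM in Flox, against 6.37 and 7.39 CPM. Not every arterial gene followed: Dll4, a Notch ligand, had 3 UMIs in each library (42.8 and 25.2 CPM, against 67.7 and 63.1 CPM), and Sema3g 99.8 and 151 CPM, against 110 and 124 CPM. Gja5, Bmx, Edn1, Dll4 and Sema3g were chosen after their values were seen.

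Venous genes were higher as well. Of 10 compared, 7 were at least 2-fold higher in both libraries and 0 lower, with a summed fold of 1.48 in KO and 1.62 in Flox. Vcam1, an adhesion receptor for white blood cells, had 157 CPM in KO and 193 CPM in Flox, against 3.58 and 6.77 CPM. Most of it lay in nuclei that also held an arterial marker of the split below. These had 9 of its 11 UMIs in KO and 16 of its 23 in Flox. In KO 8 of them were in 1 nucleus, which had 21 arterial UMIs. The level of Vcam1 is therefore not a reading of venous nuclei alone. Nr2f2, the transcription factor of venous identity, had 285 and 201 CPM, against 98.8 and 71.7 CPM, and Ackr1 57.0 and 117 CPM, against 3.19 and 2.46 CPM. Not every venous marker followed: Ephb4 had 157 and 226 CPM, against 152 and 144 CPM. Aplnr had 0 UMIs in KO and 3 in Flox (25.2 CPM), against 19.1 and 13.2 CPM. Vcam1, Nr2f2, Ackr1, Ephb4 and Aplnr were chosen after their values were seen. Lifr, the receptor of leukemia inhibitory factor, had 984 and 654 CPM, against 241 and 250 CPM. Il6st, the shared signal-transducing subunit of that receptor family, had 913 and 1291 CPM, against 94.8 and 121 CPM, and Il1r1, an interleukin-1 receptor, 271 and 369 CPM, against 58.5 and 41.6 CPM. Of 15 leukocyte adhesion genes 4 were higher and 3 lower.

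Coagulation and fibrinolysis genes were higher in Vwf nuclei. Of 13 compared, 6 were at least 2-fold higher in both libraries and 0 lower, and the list's sum was 3.63-fold higher in KO and 2.94-fold in Flox. Entpd1, which breaks down extracellular ATP and ADP, had 1055 CPM in KO and 822 CPM in Flox, against 85.2 and 72.3 CPM. Nos3, the endothelial nitric oxide synthase, had 485 and 277 CPM, against 68.9 and 66.8 CPM. In the secretory group around von Willebrand factor, 5 of 21 genes were higher and 2 lower. Unc13b, which primes vesicles for release, had 742 CPM in KO and 587 CPM in Flox, against 84.0 and 107 CPM, while Stxbp6, a SNARE-binding protein, had 57.0 and 25.2 CPM, against 620 and 312 CPM. Of 29 basement membrane and matrix genes 10 were higher and 3 lower (summed fold 2.29 in KO and 2.34 in Flox), among them Ltbp4, an elastic fibre assembly protein, at 442 and 444 CPM, against 41.8 and 57.0 CPM. Of 35 focal adhesion and actin genes 10 were higher and 1 lower, and of 20 flow-response genes 4 were higher and 0 lower, with Heg1, a junction receptor, at 2182 and 2147 CPM, against 650 and 823 CPM. Of 19 junction genes 1 was higher and 2 lower.

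Capillary genes were lower in the main. Of 18 compared, 11 were at least 2-fold lower in both libraries and 1 higher, and their sum was 0.43-fold in KO and 0.63-fold in Flox. Cd36, the fatty acid translocase, had 1911 CPM in KO and 1870 CPM in Flox, against 5341 and 4048 CPM in Vwf-negative nuclei. Adipocyte barcodes had 1894 and 1612 CPM, close to the level in Vwf nuclei. Gpihbp1, which anchors lipoprotein lipase to the capillary wall, had 6 UMIs in KO and 20 in Flox (85.6 and 168 CPM, against 680 and 482 CPM). Car4, a membrane carbonic anhydrase, had 0 UMIs in KO and 3 in Flox, against 285 and 243 CPM, and Kdr, the main VEGF receptor, 128 and 58.7 CPM, against 403 and 327 CPM. Meox2, a transcription factor of heart and muscle capillaries, stood at 984 and 805 CPM, against 860 and 931 CPM, and Plxna4, a semaphorin receptor, was the list member that was higher, at 884 and 1048 CPM, against 343 and 341 CPM. Of 23 fatty acid uptake genes 9 were lower and 0 higher; Pparg, the regulator of fat genes, had 499 CPM in KO and 948 CPM in Flox, against 3885 and 4285 CPM, but also 5332 and 6742 CPM in adipocyte barcodes. Ppara and Cidea were limited in both classes by the rule, and the part of free adipocyte RNA in the Pparg values was not tested.

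**Figure D3:**
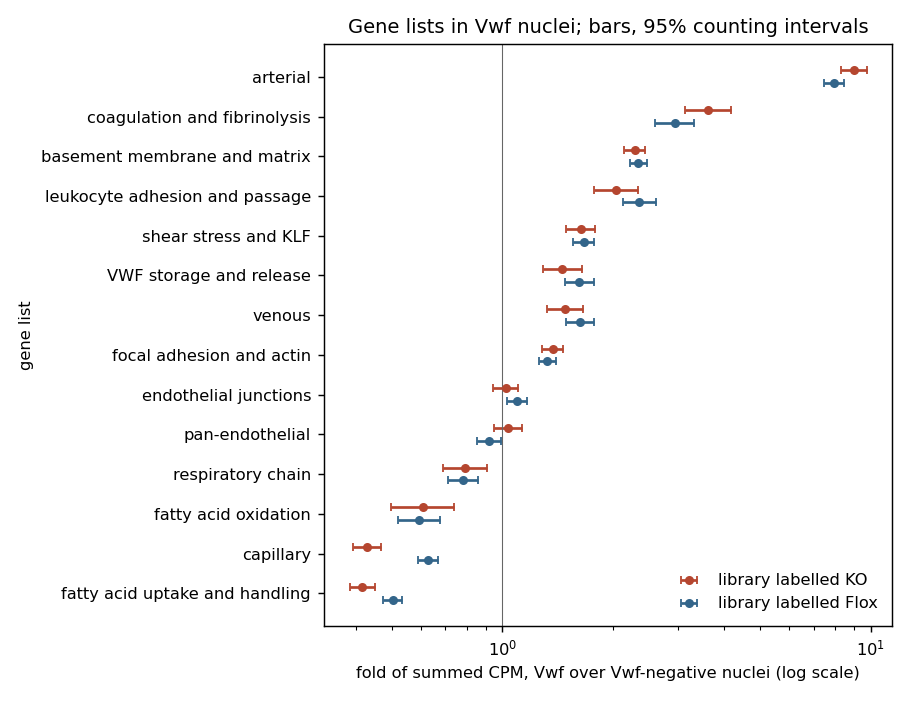
Fold of the summed CPM of endothelial and metabolic gene lists in Vwf nuclei over Vwf-negative endothelial nuclei (log axis), for the library labelled KO (red, upper point of each pair) and Flox (blue), with bars for the 95% counting interval; genes of the rule are left out of the sums, and lists of other cell types are not plotted. Of the lists plotted, arterial genes stand furthest right at 9.02 and 7.96, and fatty acid uptake genes furthest left; capillary genes lie left of 1 in both libraries, at 0.43 and 0.63.

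The 15 genes with the lowest ratios were almost absent from Vwf nuclei: 9 had no UMI in either library and all 15 had at most 2 in total. They were Opcml, Nova1, Col28a1, Egfr, Ddr2, Nox4, Chsy3, Htra3, Tnfrsf21, Tnc, Dennd2a, Coro6, Adgrd1, Slc2a3 and Xylt1. Egfr, the epidermal growth factor receptor, was at least 4.47-fold lower in KO and at least 8.58-fold lower in Flox, set against a floor of 3 UMIs over all Vwf nuclei of a library (42.8 CPM in KO and 25.2 CPM in Flox). Against the stricter Vwf-negative nuclei its log2 ratio was -0.38 in KO and -2.74 in Flox. For Tnfrsf21, Tnc, Dennd2a, Coro6, Adgrd1 and Slc2a3 the bound in KO lay between 1.64-fold and 1.94-fold. Opcml, a cell adhesion gene also on the fibroblast list, had 0 UMIs in KO and 2 in Flox, against 231 and 274 CPM. Against the stricter Vwf-negative nuclei only 7 of these 15 stayed at least 2-fold lower in both libraries, and Opcml, Nova1, Adgrd1 and Nox4 turned to a higher value in at least 1 library, while the fibroblast sum differed between the sets of Vwf-negative nuclei. That sum was 813 CPM in KO and 973 CPM in Flox in Vwf nuclei, 2678 and 3023 CPM in Vwf-negative nuclei, and 458 and 650 CPM in the stricter ones. Genes that stayed low against those, chosen after their values were seen, included Car4 (log2 ratios of -5.71 in KO and -3.56 in Flox), Col28a1 (-5.17 and -3.83), Stxbp6 (-3.44 and -3.42), Lnx1, an E3 ubiquitin ligase (-3.44 and -3.28), and Rcsd1 (-3.41 and -3.17). The arterial sum stayed 8.18-fold higher in KO and 6.29-fold in Flox, and the capillary sum stood at 0.34-fold and 0.49-fold.

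Markers of other cells were present in Vwf nuclei. The adipocyte list had the largest sum, 3194 CPM in KO and 3749 CPM in Flox, against 9558 and 10197 CPM in Vwf-negative nuclei and 22664 and 20479 CPM in adipocyte barcodes, and 8 of its 16 genes compared were lower and 0 higher. The lymphatic genes Prox1, Lyve1, Pdpn and Ccl21a had 0 UMIs in both libraries, and the lymphatic list summed to 314 CPM in KO and 302 CPM in Flox, against 248 and 218 CPM. Of the 13 fibroblast genes compared 9 were lower and 1 higher; the higher one was Fbn1, a microfibril gene, at 414 and 386 CPM, against 70.9 and 91.1 CPM. Mural genes summed to 385 and 302 CPM, against 432 and 370 CPM, with 1 of 5 higher and 3 lower. The stricter Vwf-negative nuclei had 143 and 150 CPM of mural genes, so against those the sum in Vwf nuclei was 2.70-fold higher in KO and 2.01-fold higher in Flox; the part of mural RNA in the comparisons was not tested. Macrophage genes summed to 357 and 428 CPM, against 520 and 586 CPM. The mesothelial list summed to 114 and 126 CPM, against 6.37 and 6.77 CPM, nearly all of it Gpm6a in 2 KO and 4 Flox nuclei, while Msln and Upk3b had 0 UMIs. T and NK, skeletal muscle and Schwann genes summed to at most 168 CPM in either library. Haemoglobin and other erythroid genes differed between libraries: they summed to 242 CPM in KO and 1241 CPM in Flox in Vwf nuclei, against 658 and 491 CPM in Vwf-negative nuclei. At least 3 haemoglobin UMIs were present in 2 KO and 6 Flox nuclei, and their part in the comparisons below was not tested except by leaving these nuclei out. The label of large-vessel endothelium was met in part. Its markers Sorbs2 and Pgm5 were higher than in Vwf-negative nuclei, and so were the arterial and venous sums. Pgm5 was found in 14 of 28 KO and 23 of 46 Flox nuclei. The capillary markers listed below were present in 28 of 28 and 42 of 46. Ackr1 and Vcam1 are known from venules, so these values do not tell larger veins from venules. Of the arterial and venous lists, the rule used Selp on the venous list and Mecom on the arterial list. Both were left out of the counts and sums of those lists.

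The Vwf nuclei were not uniform. With the arterial markers Gja5, Gja4, Sox17, Hey1, Efnb2, Dll4, Sema3g and Bmx and the venous markers Nr2f2, Selp, Ackr1, Ephb4, Vcam1 and Aplnr, 7 KO and 8 Flox nuclei showed arterial markers only and 10 KO and 16 Flox nuclei venous markers only. Both kinds were present in 7 KO and 18 Flox nuclei and neither in 4 and 4. A single UMI of 1 marker was enough, and some markers were also common in Vwf-negative nuclei. The fold over those was 1.46 in KO and 1.93 in Flox for Sox17 and 1.37 and 0.952 for Efnb2. It was 0.905 and 1.22 for Sema3g, 0.632 and 0.399 for Dll4, and 1.03 and 1.57 for the venous marker Ephb4. The group names thus state which markers were detected, not the vessel of origin. Selp is also a gene of the rule; without it, venous markers only were found in 8 KO and 16 Flox nuclei, arterial markers only in 7 and 9, both in 7 and 17, and neither in 6 and 4. Depth differed between them: the median was 2586 UMIs in KO and 1863 in Flox for arterial only, 1558 and 1802.5 for venous only, 3953 and 2838.5 for both, and 1108.5 and 1397.5 for neither. The capillary markers Gpihbp1, Cd36, Fabp4, Rgcc, Car4, Kdr, Meox2 and Tcf15 were not part of the split. They were present in 28 of 28 KO and 42 of 46 Flox nuclei, with 357 and 713 UMIs. Arterial markers had 68 UMIs in KO and 132 in Flox, and venous markers 66 and 120. The names of the groups thus do not mean that capillary markers were absent. The split was made after the values were seen and is given without a test.

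The summed UMIs of several genes outside the split followed it in both libraries. All Cytl1 UMIs, 68 in KO and 60 in Flox, lay in the 14 KO and 26 Flox nuclei with an arterial marker, and the other 14 KO and 20 Flox nuclei had 0. Efna5, an ephrin ligand, had 129 UMIs in KO and 135 in Flox in nuclei with an arterial marker, against 1 and 4 in nuclei without. Stmn2, a microtubule regulator, had 19 and 11, against 0 and 0. Many nuclei with an arterial marker had none of these genes' UMIs. Cytl1 was found in 4 of the 14 in KO and 9 of the 26 in Flox, Efna5 in 6 and 16, and Stmn2 in 3 and 5. In KO 1 nucleus held 62 of the Efna5 UMIs. Mgp stood at 4330 CPM in KO and 3082 CPM in Flox in nuclei with an arterial marker, against 514 and 421 CPM in those without. The opposite order held for Mctp1, with 924 CPM in KO and 355 CPM in Flox in nuclei with an arterial marker, against 2103 and 2252 CPM without, and for Il6st, with 616 and 939 CPM, against 1589 and 1980 CPM. Lrg1 stood at 267 and 190 CPM, against 514 and 495 CPM, and Il1r1 at 164 and 203 CPM, against 514 and 693 CPM. The order of Mctp1 rested on few nuclei. Of its UMIs in nuclei without an arterial marker, 1 nucleus held 29 of 45 in KO, and 2 nuclei held 47 and 31 of 91 in Flox. A Mctp1 UMI was present in 5 of 14 KO nuclei with an arterial marker and 6 of 14 without. In Flox it was present in 10 of 26 and 11 of 20. Eln was on both sides, with 4515 CPM in KO and 5353 CPM in Flox in nuclei with an arterial marker, against 3691 and 4158 CPM without. Efna5 and Stmn2 were picked after their values were seen. In KO 1 nucleus held 21 of the 68 arterial UMIs, 39 of the 68 Cytl1 UMIs and 91 of the 222 Mgp UMIs, so the arterial side of that library rests on few nuclei.

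**Figure D4:**
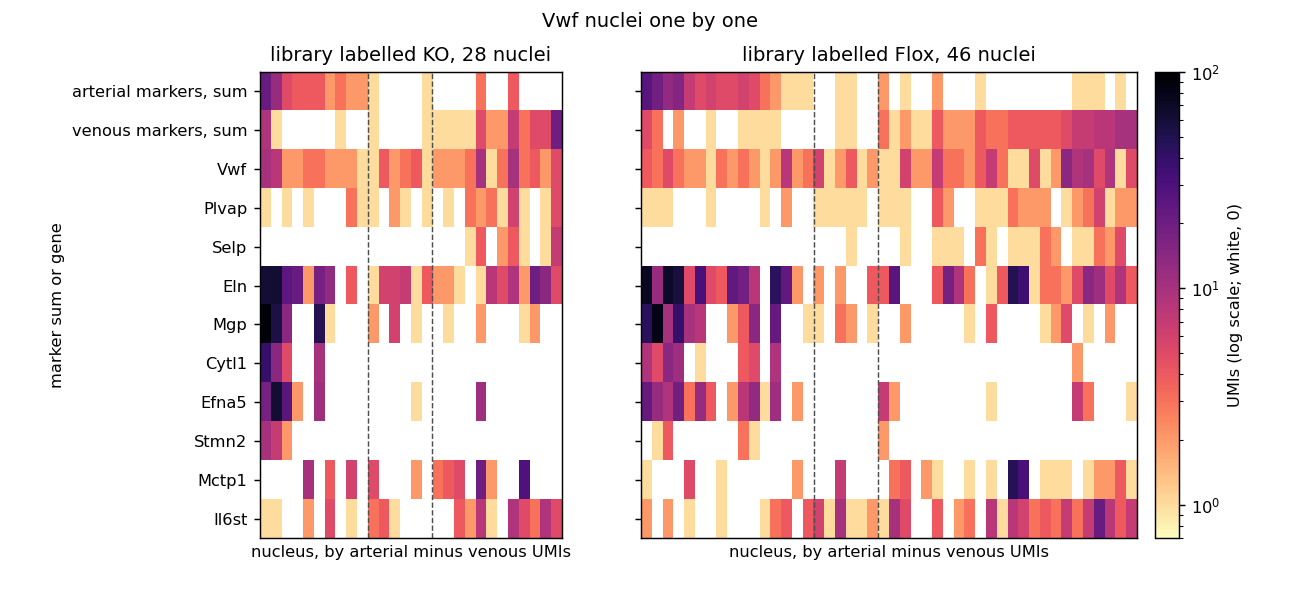
UMIs of marker sums and genes (rows) in each Vwf nucleus (columns) of the libraries labelled KO (left, 28 nuclei) and Flox (right, 46 nuclei), on a log colour scale with white for 0; nuclei run from more arterial to more venous UMIs, and dashed lines bound those with equal numbers. Cytl1, Efna5 and Mgp lie mostly on the arterial side, in a part of its nuclei. Il6st lies more in the middle and venous side, Mctp1 is concentrated in few nuclei, and Eln is found on both sides.

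Between genotypes, the genes that set the Vwf nuclei apart did not all move alike. Eln, Myrip and Sorbs2 stood at ratios between 0.809 and 1.01, while Pgm5, Sulf1 and Thsd7a were higher in KO. The nuclear receptor gene Rora was furthest apart. Of 820 genes whose UMIs in Vwf nuclei summed to 50 or more, 22 (2.68%) were 2-fold or more higher in KO and 20 (2.44%) 2-fold or more lower. At 1.5-fold these counts were 105 (12.8%) and 74 (9.02%). The median log2 ratio of KO over Flox was 0.05. In Vwf-negative nuclei, where counts are deeper, 1 of the same genes was 2-fold higher and 2 were 2-fold lower. Counting error is large at this depth, and 11 of the 22 higher and 6 of the 20 lower genes had over 25% of their UMIs in 1 nucleus. Eln stood at a ratio of 0.862 (0.747 to 0.992), Myrip at 1.01 (0.767 to 1.32), Sorbs2 at 0.809 (0.583 to 1.11) and Vwf, a gene of the rule, at 0.994. Pgm5 was 2.37-fold (1.58 to 3.60) higher in KO, but without the 2 nuclei of each library highest in it, an alternative added after the values were seen, the ratio was 1.57 (0.911 to 2.68). Sulf1 stood at 1.80 (1.39 to 2.33), with 32 of its 126 KO UMIs in 1 nucleus, and Thsd7a at 1.70 (1.29 to 2.24). Mgp and Cytl1 also had a higher CPM in KO, and in both libraries most of their UMIs lay in few nuclei.

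Rora, a nuclear receptor gene of circadian and lipid control at chr9:68653786-69388246, was the furthest apart. It had 68 UMIs (970 CPM, 753 to 1229) in 19 of 28 KO nuclei and 26 UMIs (218 CPM, 142 to 319) in 17 of 46 Flox nuclei, a log2 ratio of 2.14. The KO value was near that of Vwf-negative nuclei, which had 1000 CPM in KO and 936 CPM in Flox, and the Flox value was below it. The top nucleus held 16 of the KO UMIs, and without the top nucleus the log2 ratio was 2.18. Under the 13 alternatives tried it stayed between 1.91 and 3.57.

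The other genes named higher in KO were Esam, Cep85l, Nxpe4, Klf3, Bcl2l1, Csgalnact1, Fmo2, Acer2, Mob2, Foxn3 and Hipk1, with log2 ratios from 0.81 to 1.22. Esam, an adhesion molecule of endothelial junctions, had 33 UMIs (471 CPM) in KO and 24 (201 CPM) in Flox, and was higher in Vwf-negative nuclei too, with a ratio of 1.55 (1.39 to 1.74). Bcl2l1, which encodes the survival protein BCL-XL, had 485 CPM in KO and 235 CPM in Flox. Klf3, a transcriptional repressor, had 613 CPM and 294 CPM, while its Vwf-negative log2 ratio was -0.21. Fmo2, a flavin monooxygenase, had 104 UMIs (1483 CPM) in 20 KO nuclei and 91 (763 CPM) in 29 Flox nuclei, a ratio of 1.94 (1.45 to 2.60), which was 0.53 on the log2 scale after thinning.

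The genes named lower in KO were Setd2, Lcor, Asap1, Rapgef6, Zc3h7a, Lyst, Gtdc1, Mkln1, H2-Q4, Pdgfd, Scmh1 and Slco2a1. Pdgfd, a platelet-derived growth factor of arterial walls, had 81 UMIs (1155 CPM) in 16 KO nuclei and 270 (2264 CPM) in 32 Flox nuclei, with 53 in 1 Flox nucleus; the ratio was 0.510 (0.393 to 0.656) and the log2 ratio -0.96, or -0.73 without the top nuclei and -0.55 after thinning. Slco2a1, a prostaglandin transporter of the venous list, had 12 UMIs in KO and 40 in Flox (171 and 335 CPM). Setd2, the histone H3 lysine 36 methyltransferase, had 10 UMIs in KO and 44 in Flox (143 and 369 CPM), and Lyst, a regulator of lysosome size, 11 and 41. H2-Q4 belongs to a family of near-identical MHC class I genes, so its reads may be split among copies. In the Vwf-negative nuclei the log2 ratios of these 12 genes lay between -0.26 and 0.30.

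Over the 18 gene lists with at least 4 genes counted, the median log2 ratio of KO over Flox ran from -0.27 to 0.34, against 0.05 over all 820 genes. It was highest over 6 genes of caveolae and diaphragms, at 0.34 with 1 at least 1.5-fold higher and 0 lower, and the same list stood at 0.27 in Vwf-negative nuclei. Semaphorin, plexin and guidance genes stood at 0.28 over 7 genes, with 2 higher and 0 lower. Several of these lists hold a gene of the rule, such as Plvap for caveolae, Adgrl4 for guidance, Mecom for arteries and Vwf for its own storage. The median was 0.30 over 15 pan-endothelial genes, 5 of them at least 1.5-fold higher in KO and 0 lower, but the list holds the 8 endothelial genes of the rule and nothing is read from it. It was 0.03 over 5 venous genes, -0.11 over 8 arterial genes with 0 higher and 2 lower, 0.08 over 6 capillary genes, 0.01 over 5 genes of von Willebrand factor storage, 0.15 over 22 focal adhesion genes with 5 higher and 0 lower, 0.00 over 9 matrix genes and -0.27 over 4 Notch genes. Proteasome genes, the known targets of NFE2L1, had no member with 50 UMIs; their sum was 1512 CPM in KO and 1660 CPM in Flox, a ratio of 0.91, against 1600 and 1921 CPM in Vwf-negative nuclei. Nuclear genes of the respiratory chain summed to 3123 CPM in KO and 3942 CPM in Flox, a ratio of 0.79, against 3937 and 5034 CPM. Mitochondrially encoded genes ran the other way: all 8 counted were above 0 on the log2 scale and 3 of the 22 genes 2-fold higher were mitochondrial, such as mt-Co1 at 5590 CPM in KO and 2784 CPM in Flox. The median share of mitochondrial UMIs was 1.74% in KO and 0.650% in Flox in Vwf nuclei, and 1.34% and 0.541% in Vwf-negative nuclei; its part in the ratios was not tested.

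**Figure D5:**
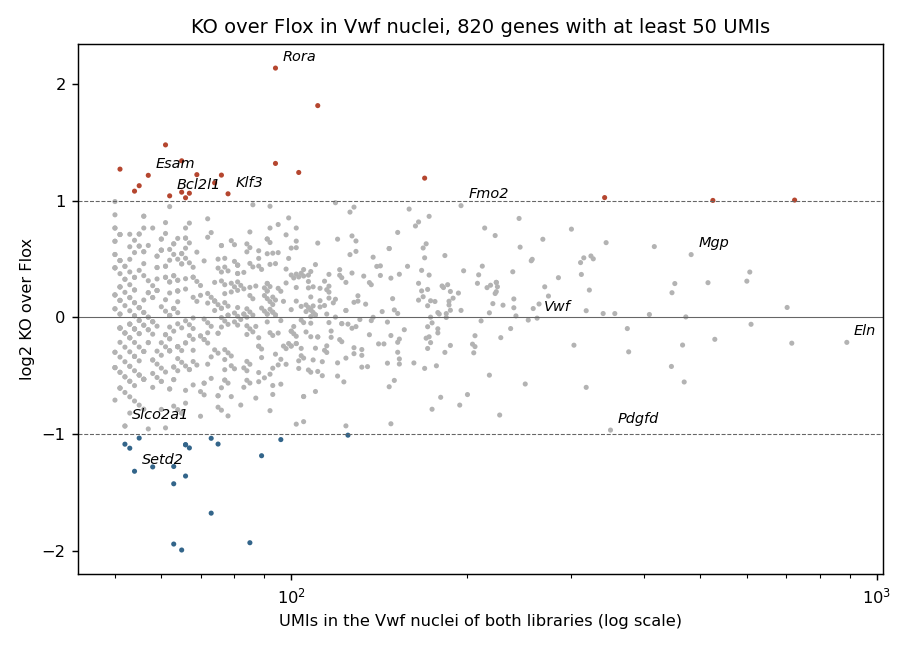
Log2 ratio of KO over Flox in Vwf nuclei against the UMIs of both libraries (log axis) for 820 genes, with dashed lines at 2-fold. Points at least 2-fold higher in KO are red and lower ones blue, most of them at the low-count end; Rora stands at 2.14 and Eln near 0 at -0.21.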

How the data were processed

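UMI counts per gene and barcode were deposited for both libraries, from Cell Ranger 5.0.0, per the file headers, with genome build mm10 named in the submitters' processing notes. The sources used here do not say how nuclei were called, whether intron reads were counted or which annotation was used. The 22620 genes were handled by ID, with positions from GENCODE vM21.

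Counts were summed over the nuclei of a class and library and scaled to CPM. Log2 ratios had 0.5 UMI added, and genes were counted at 2-fold (1.5-fold in lists). Exact Poisson, binomial and Clopper-Pearson intervals at 95% cover counting error only. Doublets were kept, and an alternative removed them with Scrublet (scanpy 1.11.5; 1333 KO and 2060 Flox barcodes), TMM factors came from edgeR 4.0.16, and thinning drew 1000 UMIs per nucleus. The calculation was tested on simulated counts. Median depth of the members was 1759.5 UMIs in KO and 2029.5 in Flox.

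The members and the 32 gene lists were chosen with earlier results of these data known. Named were the genes of the rule and markers, the 12 genes each way furthest apart between genotypes (at least 1.5-fold, 50 UMIs, a level not below that of all other barcodes and at most 25% of UMIs in 1 nucleus), the 15 each way with the largest ratio over Vwf-negative nuclei, and up to 4 members a list by UMIs, of which a part is printed. The ranking left out genes of mitochondria, ribosomal proteins, haemoglobin and sex chromosomes and clones without a name. Software was pandas 2.3.3, SciPy 1.17.1, NumPy 2.4.6 and matplotlib 3.10.9 on Python 3.11.15.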

Additional observations from a re-analysis of the deposited data

How the results depend on the processing

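No paired analysis was possible because each genotype has 1 library. Genes at least 2-fold higher in KO numbered 22 of 820 (2.68%), and 9 of 142 after thinning to 1000 UMIs (6.34%), 114 of 2418 with at least 20 UMIs (4.71%), 1916 of 10964 with no filter (17.5%) and 13 of 820 with TMM factors. Genes 2-fold lower in KO numbered 20 (2.44%), and 1 after thinning (0.704%), 172 with at least 20 UMIs (7.11%), 1961 with no filter (17.9%), 42 as the mean CPM over nuclei and 39 without the top nucleus of each gene. Over Vwf-negative nuclei 324 of 7399 genes were higher, and 163 of 3994 after thinning, 571 of 9868 with at least 20 UMIs and 62 of 1670 with at least 10 UMIs expected in the members; 525 were lower, and 241 after thinning, 128 with 10 expected UMIs and 233 of 5155 against the stricter Vwf-negative nuclei. The capillary median of KO over Flox was 0.58 without Ppara or Cidea UMIs, against 0.08, and the adipocyte median -0.54 with at least 20 UMIs, against 0.07. The number of genes counted changed with the filter, thinning and the stricter nuclei; beyond that the cause was not tested. TMM moved the median of all genes by 0.13 in KO and 0.06 in Flox on the log2 scale for Vwf over Vwf-negative nuclei.

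Of the 24 genes named between genotypes, 304 of 312 values under alternatives moved by less than their counting interval, 8 moved and 0 changed sign. Of 60 ratios over Vwf-negative nuclei, 561 of 600 values did so, 34 moved and 5 changed sign, all against the stricter nuclei: Adgrd1 (0.46 in KO and 0.14 in Flox), Nova1 (0.37 in Flox), Nox4 (0.28 in KO) and Opcml (0.50 in Flox). With 28 and 46 nuclei and 1 library per genotype, ratios near 2-fold are within what single nuclei can move, and mice, dissection and library cannot be told apart from genotype.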

Other observations

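Aqp1, a water channel gene, had 825 CPM in KO and 392 CPM in Flox in Vwf-negative nuclei, a ratio of 2.10 (1.96 to 2.26). In Vwf nuclei it had 46 UMIs (656 CPM) in KO and 72 (604 CPM) in Flox, a ratio of 1.09 (0.734 to 1.59); the difference between these ratios was not tested. Hes1, a Notch target, had 0 UMIs in KO and 1 in Flox in Vwf nuclei, while Vwf-negative nuclei had 75.7 CPM in KO and 26.8 CPM in Flox. Egr1, an immediate early gene, had 4 UMIs in KO and 0 in Flox. Chrm3, a muscarinic receptor gene, had 11 UMIs in 4 KO nuclei and 62 in 10 Flox nuclei, 33 of them in 1 nucleus, and Vwf nuclei held 14.3% of endothelial Chrm3 UMIs in KO and 24.3% in Flox. Bmp4, a growth factor gene, had 4 UMIs in 4 KO nuclei and 26 in 14 Flox nuclei, while its ratio in Vwf-negative nuclei was 0.706 (0.318 to 1.49). Enpp6, a choline phosphodiesterase gene, had 6 UMIs in KO and 16 in Flox in Vwf nuclei, which was 6 of 6 and 16 of 18 of all endothelial UMIs of that gene. These genes were chosen after their values were seen.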
